A study of Mus musculus with 38 samples.

Results

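The cytosolic ribosomal proteins are the protein building blocks of the ribosomes that translate nuclear-encoded messenger RNA. They were followed here in 3 cell populations of the mouse heart after sham surgery, after ischemia and reperfusion, and after ischemia and reperfusion with empagliflozin pretreatment. The members were all protein-coding genes of the count matrix whose symbol has the form of a cytosolic ribosomal protein (Rpl or Rps with a number, Rplp0 to Rplp2, and Rpsa), without the S6 kinases. This gave 84 of 35682 genes, of which 48 encode large subunit proteins, 33 encode small subunit proteins and 3 encode the P stalk. Ribosomal proteins with other names, such as Fau, Rack1 and Rpl36al, fell outside the rule.

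The study used male C57BL/6 mice aged 8 to 12 weeks. Sham mice received vehicle (DMSO in saline) and had the chest opened without ischemia. Control-AMI mice (Control_IR in the labels) received vehicle for 6 weeks and then 30 min of coronary ligation and 2 h of reperfusion. EMPA-Pre-AMI mice (EMPA_IR) received 10 mg/kg/d of oral empagliflozin, an inhibitor of the sodium-glucose cotransporter SGLT2, for 6 weeks before the same surgery. All 9 groups shared the strain, the sex and the oral dosing period. Each of the 38 libraries pooled 2 hearts, so the spread between libraries is smaller than the spread between single mice. Cardiomyocytes (4, 5 and 4 libraries in the order Sham, Control-AMI and EMPA-Pre-AMI) were pelleted from the digested ischemic tissue without sorting. Endothelial cells (ECs, 4, 4 and 5 libraries) were sorted as CD45-negative CD31-positive cells, and fibroblasts (4 libraries in each group) as CD45-negative, CD31-negative and CD90-positive cells.

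Ribosomal protein messenger RNAs are among the most abundant transcripts of any cell and are made in near-balanced amounts, since each ribosome holds 1 copy of most proteins. Most begin with a terminal oligopyrimidine (TOP) tract, a C followed by an unbroken run of C and T at the transcription start. Through this tract the RNA-binding protein LARP1 and the growth kinase complex mTORC1 set whether the messages are stored or translated, so their RNA level and their translation can part. A few members have a paralogue used in particular tissues. The best known in the heart is Rpl3l, which takes the place of Rpl3 in striated muscle.

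Stretches around the annotated starts are shown for members that the results turn on: Rpl3 and Rpl3l, the pair that separated the populations most, 3 members that varied together in one direction between libraries (Rps2, Rpl7a and Rps28), and 3 that varied in the other (Rpl8, Rps4x and Rpl26). Sequences are from the mouse genome build GRCm39 on the transcribed strand, 30 bases each, and capitals mark the longest run of C and T that begins with C within 100 bases of the annotated start.
Rpl3, chr15:79967630-79967659, minus strand: tcgatgcgcgCCCTTCgacccgacgcctat
Rpl3l, chr17:24946821-24946850, plus strand: ggtggggaggCCCCTTCCTaacctgcaggg
Rps2, chr17:24939067-24939096, plus strand: ttccgcggcgCCTCCCTCTTCTTCTTCTTC
Rpl7a, chr2:26800797-26800826, plus strand: ccccacaattCCCTCTTCTTTCTTTCTCCa
Rps28, chr17:34043453-34043482, minus strand: gctcacgtgaCTCCTCTCCgccagatcgcc
Rpl8, chr15:76788274-76788303, plus strand: ccgtctatttCCTCTTTCggccttgcttgc
Rps4x, chrX:101232910-101232939, minus strand: gaaggcgagtCTCTTTCCgttcctagcgca
Rpl26, chr11:68792330-68792359, plus strand: tttctcccaaCCTCCTCTCCCCTTTCgctc

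A run of at least 8 pyrimidines was found for 68 of the 84 members (81.0%) and for 49.6% of 21510 protein-coding genes searched in the same window on the same strand. For runs of at least 12 the shares were 32.1% and 13.8%. The run of Rps2 began 5 bases before its annotated start and measured 20 bases, the one of Rpl7a began 31 bases after its start and measured 19. The longest run near the Rpl3 start measured 6 bases, and that near the Rpl3l start 9. Both sets of co-varying members held long and short runs (9 to 20 bases against 8 to 16), so the 6 stretches do not separate them. A run in this window is a match of letters, and the start used in these cells was not measured.

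Libraries held 1352514 to 4509284 estimated counts. Transcripts encoded by mitochondrial DNA took 46.6% to 66.01% of them in cardiomyocytes and 3.47% to 14.6% in the sorted cells, so shares are given below over nuclear counts (counts on genes outside mitochondrial DNA). The cardiomyocyte library EMPA-Pre-AMI 2 stood apart with the highest mitochondrial share and the fewest nuclear genes with a count (11031), and Control-AMI 3 with the lowest mitochondrial share. Defining markers matched the labelled populations, with summed cardiomyocyte markers of 53565 to 119940 CPM (counts scaled to the library total) in cardiomyocytes against at most 1161 in ECs and 720 in fibroblasts. Markers of the other cell types were also present. Summed fibroblast markers in Sham libraries were 3867 to 5873 CPM in cardiomyocytes, against 675 to 1783 in ECs and 24826 to 37434 in the fibroblasts themselves, and summed endothelial markers in Sham cardiomyocytes were 1538 to 2139 CPM. These CPM include mitochondrial counts, which took 50.6% to 62.1% of Sham cardiomyocyte libraries and 4.10% to 12.5% of Sham fibroblast libraries. Over nuclear counts the cardiomyocyte values would stand higher beside those of the sorted cells. The part of these markers in the comparisons of populations was not tested. The file descriptions carry sample-sheet numbers that fall into 4 sections. All Sham and Control-AMI cardiomyocyte libraries lay in section 4, as did EMPA-Pre-AMI 4, while EMPA-Pre-AMI 1 and 3 lay in section 3 and EMPA-Pre-AMI 2 in section 2. What the sections stand for is not given in the sources used here.

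The median share of nuclear counts on ribosomal protein genes was 4.61% in cardiomyocytes (4.02% to 6.16%), 5.44% in ECs (4.90% to 6.57%) and 7.17% in fibroblasts (6.09% to 8.44%). Fibroblasts therefore gave the largest share, with 10 of 12 libraries above every EC library. In cardiomyocytes the Sham libraries held 4.68%, 4.61%, 4.48% and 4.66%. The Control-AMI libraries held 4.35%, 4.72%, 4.02%, 5.14% and 4.91%, and the EMPA-Pre-AMI libraries 4.30%, 6.16%, 4.57% and 4.18%. Sham libraries were tight, Control-AMI libraries spread on both sides of them, and of the EMPA-Pre-AMI libraries 1 lay above every other cardiomyocyte library while the remaining 3 lay inside the Control-AMI range.

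**Figure D1:**
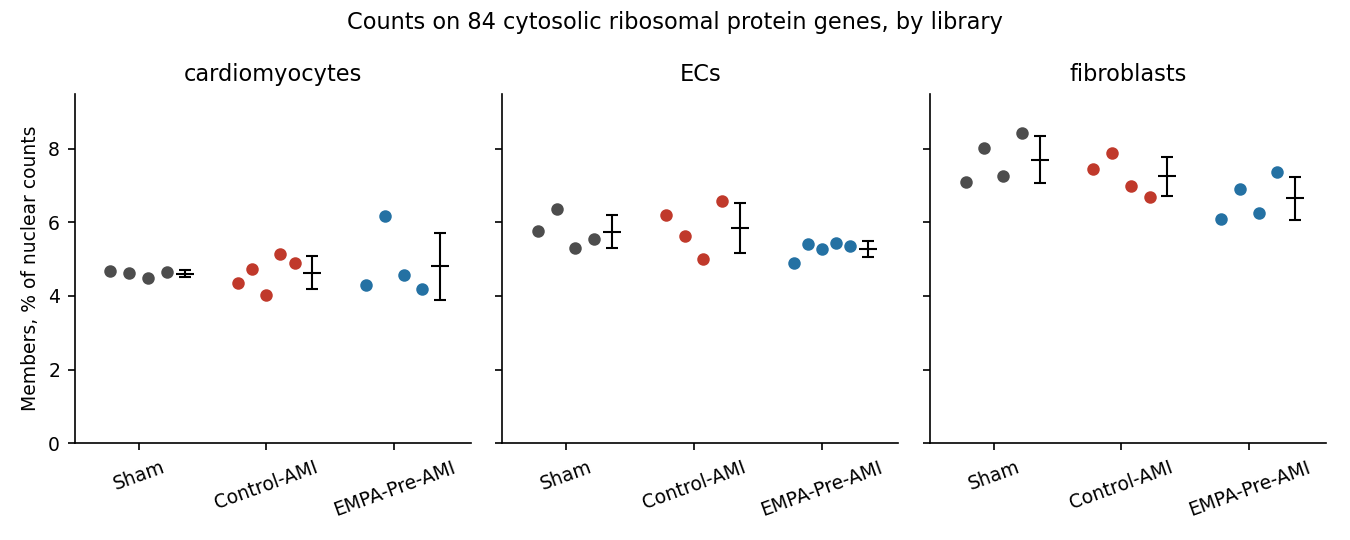
Share of nuclear counts on the 84 cytosolic ribosomal protein genes (y axis, percent) in each library, by population and group, with mean and SD as black bars. Fibroblast libraries lie at 6.09% to 8.44%, and the single high cardiomyocyte library is EMPA-Pre-AMI 2 at 6.16%.

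In ECs the Sham libraries held 5.75%, 6.36%, 5.30% and 5.55%, the Control-AMI libraries 6.19%, 5.63%, 5.02% and 6.57%, and the EMPA-Pre-AMI libraries 4.90%, 5.42%, 5.27%, 5.44% and 5.35%. The EMPA-Pre-AMI values overlapped both other groups. In fibroblasts the Sham libraries held 7.09%, 8.02%, 7.26% and 8.44%, the Control-AMI libraries 7.44%, 7.90%, 6.99% and 6.69%, and the EMPA-Pre-AMI libraries 6.09%, 6.90%, 6.26% and 7.36%. The group means fell in that order (7.70% ± 0.636, 7.26% ± 0.528 and 6.65% ± 0.588, SD, n = 4 each), but all 3 ranges overlapped. Within section 4, Control-AMI fibroblasts held 7.44%, 7.90% and 6.99% against 6.90% and 6.26% in EMPA-Pre-AMI, whereas within section 1 the order was the opposite, 6.69% in Control-AMI against 7.36% in EMPA-Pre-AMI. As in any bulk sample, fewer cells of a type and less RNA per cell cannot be told apart in such shares.

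The proteins of the mitochondrial ribosome, which translates only the transcripts of mitochondrial DNA, showed another order. Cardiomyocyte libraries had 0.495% to 0.756% of nuclear counts on its 78 genes, EC libraries 0.179% to 0.229% and fibroblast libraries 0.181% to 0.273%. For the cytosolic subunits, the large to small ratio of summed counts lay between 1.04 and 1.30 in every library. The sums cover 48 large and 33 small subunit genes, so the ratio does not compare levels per gene. The extremes were the cardiomyocyte libraries EMPA-Pre-AMI 2 at 1.04 and Control-AMI 3 at 1.30.

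The members differed widely in level, and in a similar order in each population. The libraries count 1 tag per transcript at its 3′ end, so counts do not scale with transcript length. Levels can then be set side by side, except for members that share most of their counts with processed copies, given below. Across the 84 members, Spearman's rho of the mean level was 0.944 between cardiomyocytes and ECs, 0.955 between cardiomyocytes and fibroblasts and 0.976 between ECs and fibroblasts (genes of 1 family that share each library's scaling, given as a description). Rplp1, an acidic P stalk protein that helps recruit elongation factors, had the highest mean level over the cardiomyocyte and over the fibroblast libraries, and Rps29 over the EC libraries. In nuclear CPM (counts scaled to the nuclear total of the library), Rplp1 in Sham libraries measured 1897, 1990, 1892 and 2033 in cardiomyocytes, 2058, 2068, 1540 and 1945 in ECs, and 3000, 2778, 2901 and 2566 in fibroblasts. Cardiomyocytes and ECs overlapped on this scale and fibroblasts lay above both. Rps14, Rps29 and Rpl41 followed Rplp1 in cardiomyocytes. At the other end, Rpl10l, the testis paralogue of Rpl10, had no count in any population, and Rpl39l, the testis paralogue of Rpl39, had at most 0.182% of the counts of its pair in any library.

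Reads from ribosomal protein genes can also fall on processed copies, and this limits some members. The table held 313 copy rows named after 64 of the members. For 73 members, a count that includes members without a copy row, over 95% of the family's counts lay on the member itself. For 5 members under 50% did: Rpl10 (0.717%), Rpl9 (19.8%), Rpl36a (22.2%), Rpl35 (24.2%) and Rps2 (30.4%), so that values of these 5 depend on how the estimates split reads between near-identical sequences.

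Sham libraries were used to compare the populations, in 1 fit over all 38 libraries with edgeR's quasi-likelihood test, TMM scaling and Benjamini-Hochberg adjustment over 12085 genes. In this fit 82 of the 84 members passed the filter on low counts. Against ECs, cardiomyocytes showed 36 members higher and 3 lower at an adjusted p (FDR) under 0.05, where 28.1% of all genes were higher and 24.8% lower. The median log2 fold change was 0.35 over the members and -0.04 over all genes. The largest rise was in Rpl3l (6.88 ± 0.55, SE), then in Rpl36 (1.26 ± 0.18), Rps13 (0.95 ± 0.15), Rps26 (0.95 ± 0.19) and Rpl10a (0.95 ± 0.16). All 3 P stalk members were higher in cardiomyocytes, with Rplp0 at 0.87 ± 0.18. Of the 9 members lining the exit tunnel or its rim, 5 were higher, for example Rpl23a (0.55 ± 0.16) and Rpl31 (0.41 ± 0.14). Only Rpl9 (-0.90 ± 0.33), Rps4l (-0.60 ± 0.25) and Rpl3 (-0.45 ± 0.15) were lower, and Rpl9 is among the members that share most of their counts with copies.

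The direction against ECs depended on the scaling. Without a scaling factor, in nuclear CPM, 2 members were higher and 41 lower in cardiomyocytes, with a median of -0.38, since this scale moved the median of all genes to -0.75. The members' median lay above that of all genes on both scales, but a change of scaling moves all genes nearly alike. The second scale is therefore no separate test of this. Without a scaling factor 17.6% of all genes were higher and 48.3% lower, so the members' share was near the background there. With a term for sample-sheet section, 17 members were higher and none lower, and 15 of these 17 were among the 36 above. As 21.1% of all genes were higher there, the share of members was near the background. All Sham cardiomyocyte libraries lay in section 4 and the Sham EC libraries in sections 2 and 3. Section and population can thus be told apart only through the other groups.

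Rpl36, a small protein of the large subunit, shows both scales. Its TMM-scaled CPM in Sham libraries was 633, 635, 630 and 544 in cardiomyocytes, 278, 283, 216 and 243 in ECs, and 372, 359, 352 and 345 in fibroblasts. In nuclear CPM the values were 666, 680, 629 and 602 in cardiomyocytes, 474, 487, 390 and 437 in ECs, and 602, 635, 598 and 576 in fibroblasts. Cardiomyocytes lay above ECs in every library on both scales, and above fibroblasts without overlap on the first scale only. Rplp0, in contrast, overlapped between cardiomyocytes (387 to 486 nuclear CPM) and ECs (342 to 488) on the second scale.

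Against fibroblasts, cardiomyocytes showed 7 members higher and 17 lower, where 24.5% of all genes were higher and 22.7% lower, with a median of -0.13 over the members and -0.09 over all genes. Among the higher members were Rpl3l (7.74 ± 0.57), Rpl35 (1.00 ± 0.41), Rpl36 (0.77 ± 0.17) and Rpl41 (0.76 ± 0.18). Rpl35, like Rpl9 below, shares most of its counts with copies. In Sham fibroblasts it held 654, 152, 146 and 704 counts, which was 22.8%, 9.08%, 7.55% and 30.0% of its family's counts. In Sham cardiomyocytes its share of the family was 21.0% to 28.3%. The largest falls among called members were Rpl9 (-0.97 ± 0.33), Rpl22l1 (-0.93 ± 0.35), Rpl30 (-0.86 ± 0.29), Rpl39 (-0.86 ± 0.29) and Rpl3 (-0.83 ± 0.15). Rps12, a small subunit protein with a role in the sensing of unfit cells in flies, was also lower (-0.80 ± 0.14). In nuclear CPM, Rps12 measured 946, 930, 839 and 991 in cardiomyocytes, 1860, 1868, 1597 and 1722 in ECs, and 2434, 2826, 2507 and 2511 in fibroblasts, with no overlap between populations. The split of 7 against 17 rested partly on 1 library, and without fibroblast Sham 4 it was 8 against 7 (22.6% and 19.8% of all genes). With the section term it was 5 against 4 (20.3% and 18.1% of all genes), and without a scaling factor 1 against 65 (15.7% and 48.6% of all genes).

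ECs against fibroblasts gave the clearest difference, with 45 members lower in ECs and none higher, where 20.2% of all genes were lower and 17.6% higher. The median was -0.47 over the members and -0.04 over all genes. The largest differences among called members were in Rpl22l1 (-1.08 ± 0.34), Rplp0 (-1.04 ± 0.18), Rpsa (-1.03 ± 0.17), Rpl10a (-0.97 ± 0.16) and Rpl36a (-0.93 ± 0.34). Rpl36a is one of the members that share most of their counts with copies. All 3 P stalk members were lower in ECs, as were Rpl5 (-0.58 ± 0.15) and Rpl11 (-0.53 ± 0.16), which enter the large subunit together with a small ribosomal RNA and can hold back the p53 regulator Mdm2. Rpsa, a small subunit protein also known as a laminin receptor, measured 323, 426, 338 and 402 nuclear CPM in EC Sham libraries and 652, 767, 753 and 759 in fibroblast Sham libraries, which did not overlap. None was higher by DESeq2 either, which called 48 lower (20.9% of all genes), and at an unadjusted p under 0.05 the counts were 55 lower (24% of all genes) and none higher. Without fibroblast Sham 4 the count was 26 (18.7% of all genes), and without EC Sham 3 it was 27 (17.7%). With the section term 8 members were lower and none higher, where 11% of all genes were lower, so that the share of members was near the background. Of the Sham libraries, ECs had 3 in section 2 and fibroblasts 3 in section 1, so that section and population can be told apart only in part.

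**Figure D2:**
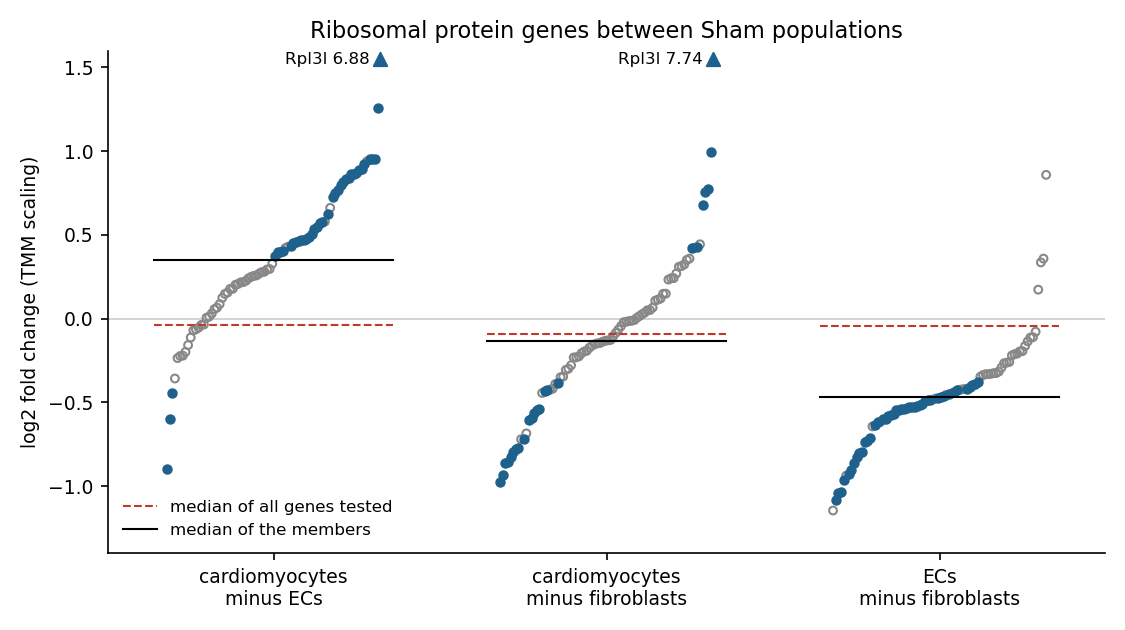
Log2 fold change between Sham populations (y axis, TMM scaling) of each of 82 members, ranked within each comparison, with called members filled and the others open. Black lines give the members' median (0.35, -0.13 and -0.47, the first of which is -0.38 without a scaling factor) and dashed red lines that of all genes. Rpl3l lies outside the axis and is drawn as a triangle with its value.

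Rpl3l had by far the largest difference between the populations of any tested member. Rpl3 and Rpl3l sit at the same place beside the peptidyl transferase centre, and a ribosome holds one or the other. Rpl3l took 37.004% to 71.4% of the counts of the pair in cardiomyocytes (median 58.8%, with 348 to 952 counts of the pair per library) but at most 3.46% in any EC library and 0.607% in any fibroblast library. By group the cardiomyocyte share was 61.002% ± 3.95 in Sham (SD, n = 4), 55.013% ± 11.2 in Control-AMI (n = 5) and 61.6% ± 11.6 in EMPA-Pre-AMI (n = 4). Neither group difference exceeded the spread (exact permutation test, two-sided, p = 0.413 and 0.397, both adjusted to 0.818). In ECs the Sham libraries held 1, 2, 23 and 2 counts of Rpl3l. The library with 23 was also the EC library with the highest summed cardiomyocyte markers (1161 CPM against 208 to 1046 in the others), and their part in the Rpl3l counts was not tested.

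**Figure D3:**
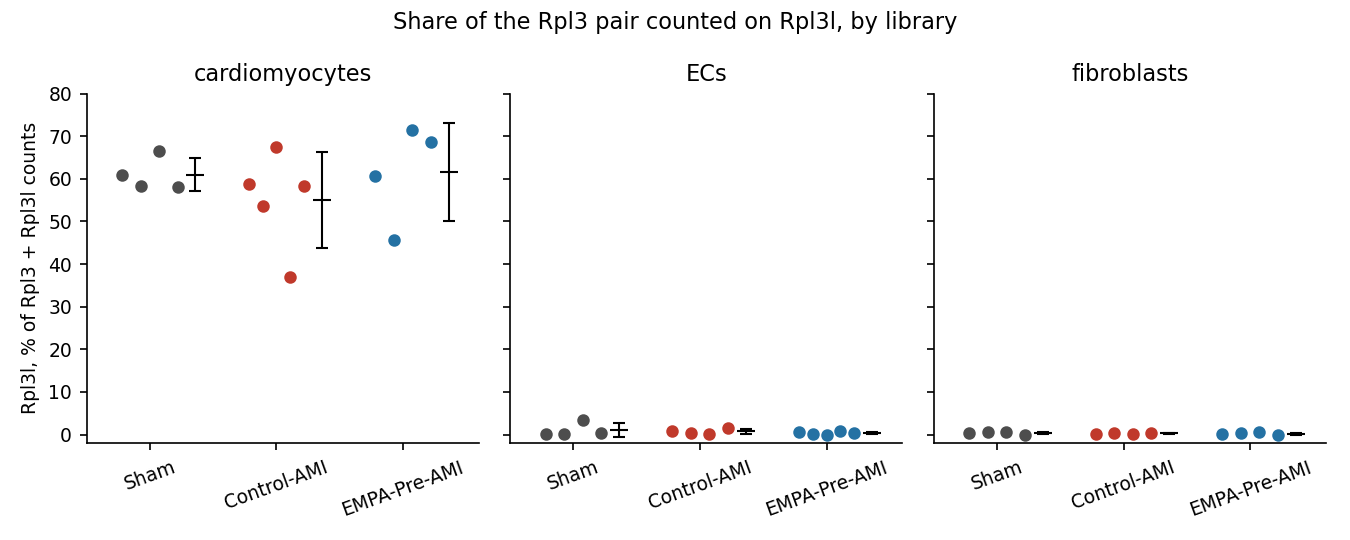
Percent of Rpl3 plus Rpl3l counts on Rpl3l (y axis) in each library, by population and group, with mean and SD as black bars. Cardiomyocyte libraries lie between 37.004% and 71.4% and all others at or under 3.46%.

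For the other pairs, the ranges of most overlapped between the populations. Rps27l, a target of p53 that differs from Rps27 by few residues, took 12.9% to 20.0% of its pair in cardiomyocyte libraries, 6.36% to 12.6% in EC libraries and 7.81% to 13.996% in fibroblast libraries. Rpl22l1 took 5.18% to 29.01%, 9.66% to 15.7% and 13.2% to 24.4% of the Rpl22 pair, Rpl7l1 3.08% to 7.92%, 4.92% to 9.99% and 3.25% to 6.20% of the Rpl7 pair, and Rps4l 1.90% to 9.68%, 4.57% to 10.2% and 2.75% to 6.21% of the Rps4x pair. Rpl36al, an intronless paralogue, took 60.0% to 91.1%, 54.8% to 72.5% and 44.4% to 77.4% of the counts of Rpl36a and itself. The Rpl10 pair held at most 34 counts in a library and was not tested. Among 42 tests of a share between treatment groups (7 pairs), 1 had p under 0.05: the Rps4l share in cardiomyocytes, at 6.95% ± 2.33 in EMPA-Pre-AMI (SD, n = 4) against 3.70% ± 1.24 in Control-AMI (n = 5, exact permutation p = 0.0476). No share passed after Benjamini-Hochberg adjustment over the 42, the lowest adjusted p being 0.818. With 4 or 5 libraries in a group, the smallest possible p is too large for 1 share alone to pass this adjustment. The lack of a pass therefore decides nothing about single pairs. The 42 also held near-empty shares, such as that of Rpl39l.

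Within each population, ischemia and reperfusion and empagliflozin were compared in a fit of its 3 groups. The filter kept 81 of the 84 members in each population (Rpl10l and Rpl39l failed in all, Rpl10 in cardiomyocytes, and Rpl3l in ECs and fibroblasts), and no member was called at an FDR under 0.05 in any of the 9 comparisons.

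In cardiomyocytes, Control-AMI differed little from Sham in ribosomal protein genes. None of the 81 members was called, where 0.0655% of 9167 genes were, and none had an unadjusted p under 0.05, where 2.72% of all genes did, and DESeq2 called none. The median log2 fold change was -0.01, and 76 of 81 intervals (1.96 SE) lay within 1 log2 unit on either side of 0. The lowest p values belonged to Rpl7l1 (-0.38 ± 0.23), Rpl6 (-0.18 ± 0.16) and Rpl8, all with an FDR of 1.00.

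EMPA-Pre-AMI against Control-AMI cardiomyocytes gave higher values for many members, but the difference lay in a few libraries. At an FDR under 0.05 no member was called, where 0.0218% of all genes were. At the FDR of 0.1 that the study used for cardiomyocytes, 4 members were called, where 10.7% of all genes were: Rpl35 (0.64 ± 0.20, FDR 0.0773), Rps3 (0.98 ± 0.32), Rps10 (0.86 ± 0.28) and Rpl27 (0.98 ± 0.33, FDR 0.0908). At an unadjusted p under 0.05 there were 24 members (23 higher and Rpl8 lower), where 25% of all genes had such a p, so the share of members was near the background. Of the 81 members 61 were higher, with a median of 0.28 against -0.01 over all genes. DESeq2 called 10 members higher at an FDR under 0.05, where it called 9.6% of all genes. Summed fibroblast markers were 874 to 5253 CPM in the EMPA-Pre-AMI and 3169 to 7522 in the Control-AMI libraries, and their part in these values was not tested.

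Rps2, at the entry of the messenger RNA channel, had the largest fold change of any member and the most uneven values. Its TMM-scaled CPM was 48.7, 38.8, 47.2 and 47.8 in Sham, 49.4, 41.6, 4.27, 43.3 and 50.05 in Control-AMI, and 43.2, 364, 115 and 48.6 in EMPA-Pre-AMI. Control-AMI 3 lay far under all other libraries, EMPA-Pre-AMI 2 and 3 lay above all others, and EMPA-Pre-AMI 1 and 4 lay in the range of the controls. The fold change of 1.90 ± 0.68 (FDR 0.123) was not called. The member's share of its family's counts moved too, from 24.3% to 30.5% in the other section 4 libraries to 5.73% in Control-AMI 3, 35.8% in EMPA-Pre-AMI 3 and 64.3% in EMPA-Pre-AMI 2.

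Rps10, a small subunit protein mutated in Diamond-Blackfan anemia, showed the same libraries. It measured 110, 131, 131 and 138 in Sham, 128, 136, 75.2, 150 and 160 in Control-AMI, and 138, 417, 252 and 137 in EMPA-Pre-AMI. Rps3, a neighbour of Rps2 at the entry channel, measured 87.0, 84.2, 100 and 85.2 in Sham, 78.2, 87.0, 44.7, 79.3 and 98.8 in Control-AMI, and 91.6, 298, 153 and 72.1 in EMPA-Pre-AMI. Only EMPA-Pre-AMI 2 and 3 exceeded the other groups for both genes.

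Rpl35, at the rim of the exit tunnel, had a different pattern. It measured 82.8, 86.2, 110 and 89.0 in Sham, 74.9, 83.2, 84.4, 87.7 and 94.9 in Control-AMI, and 165, 155, 135 and 76.4 in EMPA-Pre-AMI. The 3 libraries of sections 2 and 3 lay above all others and the section 4 library EMPA-Pre-AMI 4 below the Sham range. Rpl35 shares most of its family's counts with copies, and its own share was 42.4%, 35.8%, 43.8% and 20.4% in the EMPA-Pre-AMI libraries against 15.0% to 28.3% in section 4 as a whole. With copies summed to the member, the log2 fold change was -0.14 in place of 0.64. Rpl8, a large subunit protein near the peptidyl transferase centre, was lower (-0.46 ± 0.21, FDR 0.186) and measured 193, 202, 190 and 203 in Sham, 190, 185, 335, 258 and 187 in Control-AMI, and 161, 177, 118 and 216 in EMPA-Pre-AMI. Control-AMI 3 and 4 were the highest, and EMPA-Pre-AMI 4 lay above the other 3 Control-AMI libraries, so the groups overlapped.

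**Figure D4:**
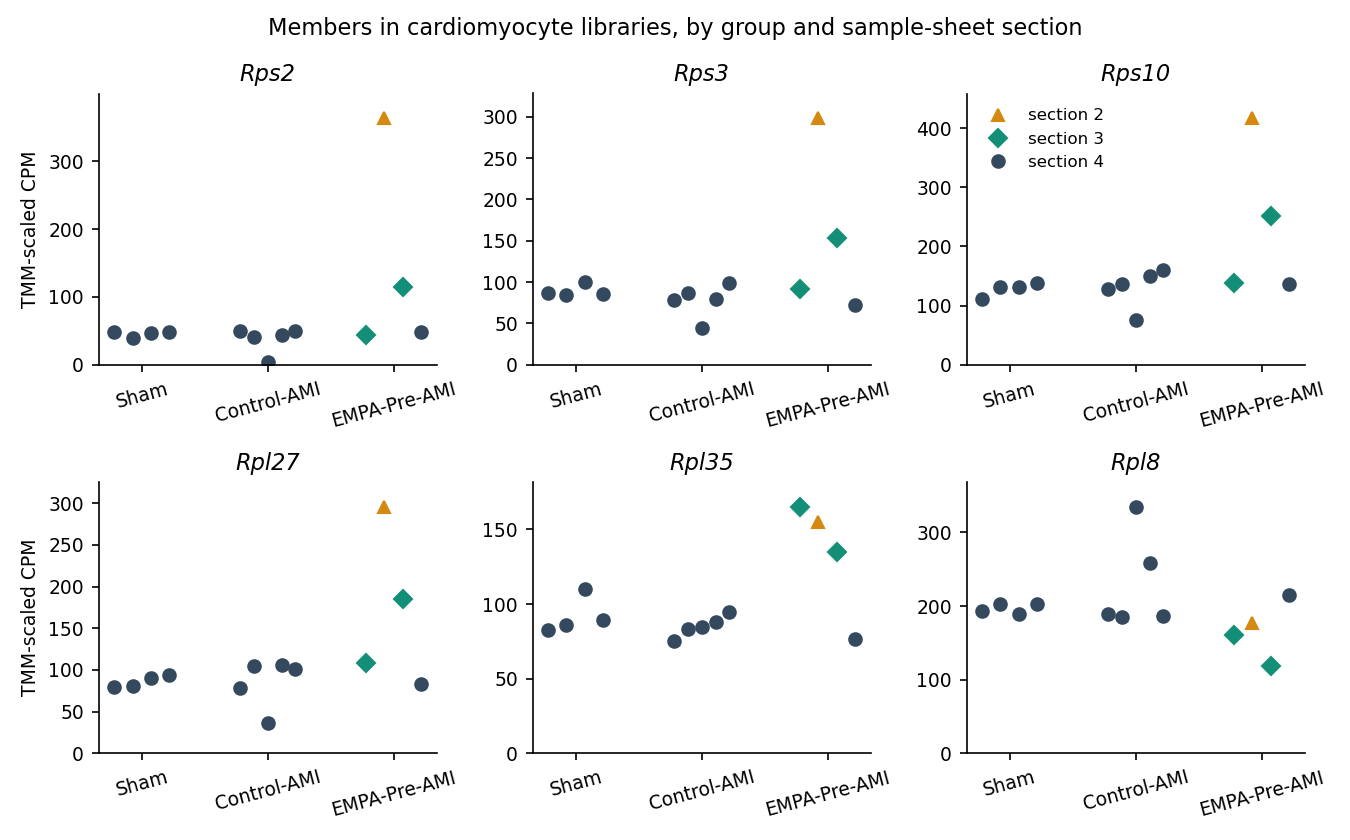
TMM-scaled CPM (y axis, linear, from 0) of 6 members in the 13 cardiomyocyte libraries, by group, with the symbol giving the sample-sheet section. The high values of Rps2, Rps3, Rps10 and Rpl27 are EMPA-Pre-AMI 2 (section 2) and 3 (section 3), and EMPA-Pre-AMI 4 (section 4) lies near the controls in each panel.

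Leaving out EMPA-Pre-AMI 2 brought the members at p under 0.05 from 24 to 4 and the median to 0.10. With a section term none had p under 0.05 and the median was -0.01. This fit rests on EMPA-Pre-AMI 4 alone, since every control library lay in section 4, so section and treatment cannot be told apart for the other 3 libraries. In the opposite direction, leaving out EMPA-Pre-AMI 4 gave 15 called members, where 15.8% of all genes were called, and leaving out EMPA-Pre-AMI 1 gave 1, where 3.46% were. EMPA-Pre-AMI against Sham had the same unevenness. No member was called (0.338% of all genes were), 17 had an unadjusted p under 0.05 (18.2% of all genes did) and DESeq2 called none. The lowest p values were for Rps4l (0.88 ± 0.29), Rps10 (0.88 ± 0.30) and Rpl27, and without EMPA-Pre-AMI 4 there were 6 calls (9.96% of all genes). Both comparisons share the EMPA-Pre-AMI libraries.

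The libraries that stood apart in cardiomyocytes did so along a pattern that recurred in the sorted cells. Deviations of each member from its group mean (log2 of CPM + 1, members with a mean of at least 5 CPM) were reduced to their first axis, which held 65.96% of the members' variance in cardiomyocytes, 40.6% in ECs and 53.8% in fibroblasts. Spearman's rho between the members' weights was 0.681 for cardiomyocytes and ECs (80 members), 0.782 for cardiomyocytes and fibroblasts (80) and 0.800 for ECs and fibroblasts (81). The populations share no library, and the weights are given as a description. On the EC axis Rpl10 had the largest weight (0.686, then Rpl7a at 0.199), and its pair held at most 22 counts in an EC library. The EC share of variance thus leaned on 1 gene with few counts. In cardiomyocytes the 10 members at the high end were Rps2, Rpl7a, Rpl22l1, Rpl36a, Rpl39, Rps28, Rps18, Rpl27, Rpl9 and Rps3, of which Rps2, Rpl36a and Rpl9 share most of their counts with copies. The 10 at the low end included Rpl3l, Rpl8, Rps4x, Rps26, Rpl26, Rpl7, Rpl23a, Rps9 and Rps3a1.

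The log2 ratio of the summed CPM of these 10 high to 10 low members was used as a measure of balance in every library. In cardiomyocytes it was -3.92 in Control-AMI 3, -2.33 to -1.97 in the other 9 libraries of section 4, -1.91 and -1.31 in EMPA-Pre-AMI 1 and 3, and -0.16 in EMPA-Pre-AMI 2. The members had been chosen on those libraries, so this is a description. In fibroblasts, which the choice did not use, the 6 libraries of section 4 lay at -2.65 to -2.06, the 5 of section 1 at -1.80 to -0.82 and the 1 of section 3 at -1.59, with no overlap between sections 4 and 1. Sections 4 and 1 each held fibroblast libraries of all 3 treatment groups. In ECs the 2 libraries of section 4 lay at -2.34 and -1.85, the 8 of section 2 at -1.90 to -1.22 and the 3 of section 3 at -1.95 to -1.50. Section 4 thus had the lowest library in each population, with overlap in ECs. The part of the sections in the treatment comparisons beyond the fits with a section term was not tested.

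**Figure D5:**
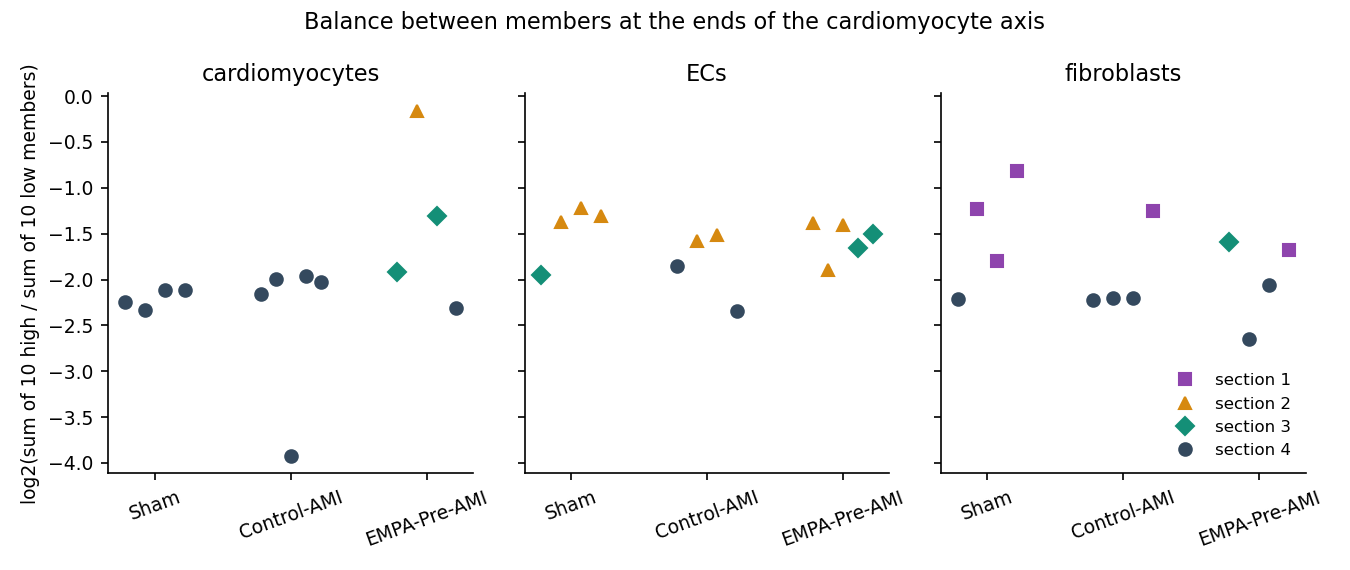
Log2 ratio of the summed CPM of 10 high to 10 low members (y axis) in each library, by population and group, with the symbol giving the sample-sheet section. In fibroblasts the section 1 libraries (-1.80 to -0.82) lie above all section 4 libraries (-2.65 to -2.06) whatever their group.

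In ECs, ribosomal protein genes showed no called change. For Control-AMI against Sham no member was called, where 6.56% of 10438 genes were. Rps2 (-0.42 ± 0.19) and Rps3 (-0.33 ± 0.15) had an unadjusted p under 0.05, where 19.8% of all genes did, and Rpsa followed (0.31 ± 0.15, FDR 0.259). Rps2 measured 66.1, 97.5, 96.8 and 81.9 CPM in Sham, 72.6, 58.9, 60.2 and 64.1 in Control-AMI, and 59.2, 54.6, 67.9, 65.5 and 94.0 in EMPA-Pre-AMI, so the groups overlapped. Rpsa measured 306, 385, 298 and 358 in Sham, 497, 363, 345 and 464 in Control-AMI, and 339, 370, 341, 298 and 304 in EMPA-Pre-AMI. The libraries with the highest Rpsa, Control-AMI 1 and 4, also had high shares of ribosomal protein counts (6.19% and 6.57%, beside 6.36% in Sham 2), lay in section 4, and had the highest summed fibroblast markers. These measured 675 to 1783 CPM in Sham, 9957, 2377, 2953 and 5390 in Control-AMI, and 611 to 1097 in EMPA-Pre-AMI. Summed endothelial markers measured 9190 to 9971 CPM in Sham, 4821 to 6544 in Control-AMI and 6601 to 9407 in EMPA-Pre-AMI. The Control-AMI libraries thus lay above both other groups in fibroblast markers and below both in endothelial markers, without overlap. The part of these markers in the EC comparisons with Control-AMI was not tested.

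EMPA-Pre-AMI against Control-AMI in ECs had 65 of 81 members lower (median -0.12 against 0.02 over all genes), in the comparison whose groups also differed in the markers above. No member was called, where 2.63% of all genes were. Rpsa (-0.34 ± 0.14), Rps15a (-0.31 ± 0.14) and Rps27l (0.42 ± 0.20) had an unadjusted p under 0.05, where 12.2% of all genes did. With the section term the median was 0.00. EMPA-Pre-AMI against Sham gave no call (2.71% of all genes) and 1 member, Rpl7l1 (-0.40 ± 0.18), at an unadjusted p under 0.05 (14.1% of all genes). DESeq2 called no member in any of the 3 EC comparisons, and 80 of 81 intervals in each lay within 1 log2 unit of 0.

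In fibroblasts, Control-AMI against Sham gave no called member, where 4.16% of 10691 genes were called. Rps26 (0.42 ± 0.18, FDR 0.219) and Rpl8 (0.40 ± 0.19) had an unadjusted p under 0.05, where 19.2% of all genes did, and Rps12 had the next lowest p. Rps26, a small subunit protein that contacts the messenger RNA upstream of the start codon, measured 818, 751, 655 and 713 CPM in Sham and 1045, 1181, 1067 and 638 in Control-AMI. Of the Control-AMI libraries, the 3 of section 4 lay above every Sham library and the 1 of section 1 below them all. The only Sham library of section 4 held 818, the highest of its group. Without Control-AMI 4, 1 member was called, where 4% of all genes were.

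EMPA-Pre-AMI against Control-AMI in fibroblasts had 75 of 81 members lower with a median of -0.13, against 0.01 over all genes. Members varied together between libraries, so these 75, like the 65 lower in ECs and the 61 higher in cardiomyocytes, are not separate observations. The summed share of the members ran in opposite directions between sections, as given above. No member was called (0% of all genes) and none had an unadjusted p under 0.05 (1.59% of all genes), and DESeq2 called none. The lowest p values belonged to Rpl29 (-0.34 ± 0.17), Rps12 (-0.30 ± 0.15) and Rpl41. Rps12 measured 2934, 3252, 2793 and 2286 CPM in Control-AMI and 2211, 2503, 2246 and 2191 in EMPA-Pre-AMI, where the section 1 library Control-AMI 4 lay among the EMPA-Pre-AMI values. EMPA-Pre-AMI against Sham gave no call (5.11% of all genes), also by DESeq2, and 3 members at an unadjusted p under 0.05 (20.8% of all genes), namely Rps4l (0.55 ± 0.23), Rps23 (-0.45 ± 0.20) and Rpl39.

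Whether a response differed between populations was tested as an interaction in the fit of all libraries, with 82 members. None was called in any of 6 contrasts. For Control-AMI against Sham, 1.51% of all genes differed between cardiomyocytes and ECs, 0.331% between cardiomyocytes and fibroblasts and 3.22% between ECs and fibroblasts, and 0, 1 and 0 members had an unadjusted p under 0.05, where 9.09%, 8.47% and 12.8% of all genes did. For EMPA-Pre-AMI against Control-AMI the shares of all genes were 0.993%, 0.00827% and 2.04%. There 25, 23 and 0 members had an unadjusted p under 0.05, all higher in cardiomyocytes, where 16.5%, 15.2% and 8.09% of all genes did. DESeq2 called 5 members in each of the first and second contrasts, where it called 3.33% and 1.37% of all genes, and none in the others. Rplp0 had the lowest p between cardiomyocytes and ECs (0.75 ± 0.23, FDR 0.103) and Rpl22l1 between cardiomyocytes and fibroblasts (1.58 ± 0.48, FDR 0.149). These contrasts rest on the same EMPA-Pre-AMI cardiomyocyte libraries as above.

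The genes that build and regulate ribosomes were read out of the same fits. Of 90 ribosome biogenesis genes, 12 rose and none fell in fibroblasts for Control-AMI against Sham, where 4.16% of all genes were called. Among them were Nop56 (1.29 ± 0.24), which modifies ribosomal RNA, Gtpbp4 (1.18 ± 0.22), a large subunit assembly GTPase, and Nolc1 (1.04 ± 0.21), a nucleolar chaperone. For EMPA-Pre-AMI against Sham 22 rose and none fell, where 5.11% of all genes were called. The median over the list was 0.42 and 0.62 in these comparisons, beside 0.08 and -0.08 over the ribosomal proteins. Sham fibroblasts had 3 libraries in section 1 and Control-AMI fibroblasts 3 in section 4. Section and treatment can thus be told apart only in part in these fibroblast comparisons. EMPA-Pre-AMI against Control-AMI called none of the 90. In cardiomyocytes and ECs no gene of this list was called in any treatment comparison. At an unadjusted p under 0.05 the counts there lay between 0 and 15, where 2.72% to 25% of all genes had such a p.

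Of 40 translation factors, Eif5, an initiation factor that aids start codon choice, rose in fibroblasts (0.93 ± 0.17) and ECs (0.68 ± 0.16) after ischemia and reperfusion. In all, 3 rose in fibroblasts, where 4.16% of all genes were called, and 2 in ECs, where 6.56% were, and none fell. Among 24 regulators of mTORC1 and growth, Ddit4, a stress-induced inhibitor of mTORC1, rose in Control-AMI against Sham in cardiomyocytes (1.46 ± 0.20), ECs (1.77 ± 0.44) and fibroblasts (1.82 ± 0.30). In cardiomyocytes Ddit4 was also higher in EMPA-Pre-AMI than in Control-AMI (1.20 ± 0.18, FDR 0.0217), 1 of 2 genes called in that comparison. All Control-AMI cardiomyocyte libraries lay in section 4, as did only EMPA-Pre-AMI 4 of the treated ones. Section and treatment cannot be told apart for the other EMPA-Pre-AMI libraries. Eif4ebp1, a repressor of cap-dependent initiation, rose in fibroblasts (1.096 ± 0.26), and Eif4ebp2 fell in ECs (-0.66 ± 0.18). Such single genes were taken from the 24 by lowest FDR and do not describe the list as a whole. For Control-AMI against Sham, 4.16% of all genes were called in fibroblasts and 6.56% in ECs. The limit from the sections given above for fibroblasts holds for the fibroblast values here too. Mitochondrial ribosomal protein genes were higher in Sham cardiomyocytes for 70 of 77 tested against ECs and again for 70 of 77 against fibroblasts, with medians of 2.04 and 1.62, where 28.1% and 24.5% of all genes were higher.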

How the data were processed

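RNA of 38 libraries had been sequenced from the 3′ end (QuantSeq). Per the labels and methods, the authors trimmed reads with cutadapt, quantified them with Salmon on GRCm39 and deposited estimated counts per gene, unnormalized. Salmon splits reads between near-identical sequences, which touches members with processed copies. Here estimated counts were rounded and tested with edgeR 4.0.16 in R 4.3.3 (filterByExpr, TMM, robust quasi-likelihood fit, Benjamini-Hochberg over all genes tested), per population for treatments and over all libraries for populations and interactions. DESeq2 1.42.0 was an alternative. Intervals are 1.96 SE. Shares were compared by exact permutation tests. The scripts were tested on simulated data. Symbols and starts came from the GENCODE annotation of GRCm39. Genes named are those with the 5 largest rises and falls among calls, otherwise the 3 lowest p values, plus paralogues and role lists. Per-library values, copies, sections and the axis were chosen after values were seen, and the members and lists were chosen with earlier results of these data known. Same-group libraries differed by more than sampling noise in all 62 pairs. Each library was a pool of hearts, so p-values measure the spread between pools. Per the methods, the supernatant of the pelleted cardiomyocytes was used to sort both ECs and fibroblasts, so libraries of different populations can come from the same hearts. Which do is not given in the sources used here, and the fit over all libraries treats them as independent. Depth was 1352514 to 4509284 counts per library. A few genes are not reported here by name.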

Additional observations from a re-analysis of the deposited data

Results flagged for a closer look

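Among 54 groups of 4 or 5 libraries examined for a single distant value, 7 had one. The items examined overlap, and some were chosen on these same libraries, so this count cannot be set against a chance rate. In cardiomyocytes, Control-AMI 3 lay apart in the ratio of high to low members (-3.92 against -2.16 to -1.97 in the other Control-AMI libraries), in Rps2 (4.27 CPM against 41.6 to 50.05) and in Rpl7a (15.4 CPM against 68.6 to 88.3). Sham 2 lay below the other Sham cardiomyocyte libraries in Rps2 (38.8 CPM against 47.2 to 48.7) and Rps28 (125 CPM against 150 to 151). In fibroblasts, Control-AMI 4, the only Control-AMI library of section 1, had a ratio of -1.26 against -2.23 to -2.20. In ECs, Sham 3 had 3.46% of the Rpl3 pair on Rpl3l against 0.131% to 0.358%. The causes were not tested.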

How the results depend on the processing

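Treatment comparisons kept 0 called members under RLE factors, no filter, no mitochondrially encoded genes, only the groups compared, the section term and copies summed (added after the data were seen). The exceptions were DESeq2, with 10 in cardiomyocytes for EMPA-Pre-AMI against Control-AMI and 10 over the interactions, and single libraries left out: 0 to 15 and 0 to 6 calls in cardiomyocytes for EMPA-Pre-AMI against Control-AMI and Sham, and 0 to 1 in fibroblasts for Control-AMI against Sham. Without cardiomyocyte Control-AMI 3 and EMPA-Pre-AMI 2 together (added later) there were 0 calls, with a median of 0.05.

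Sham cardiomyocytes against ECs gave 39 calls, 25 without a filter, 17 with the section term, 60 averaged over treatments, 43 without a scaling factor (added later, 41 lower and 2 higher), and 26 to 41 with a library left out. Cardiomyocytes against fibroblasts gave 24, 9 with the section term, 41 averaged, 66 without a scaling factor, and 15 to 25. ECs against fibroblasts gave 45, 29 without a filter, 8 with the section term, 69 averaged, and 26 to 50. The share of counts in cardiomyocytes was 1.99% over all counts.

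Reversed members were Rpl35 (-0.14 with copies summed, -0.15 with the section term) and Rps3 (-0.11, section term) for EMPA-Pre-AMI against Control-AMI cardiomyocytes, and Rpl27 against Sham (-0.056, section term). The causes were not tested.

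Equal replicate numbers do not pair samples in the labels, and same-numbered libraries correlated over 0.1 in 3, 4 and 6 of 12 pairs in cardiomyocytes, ECs and fibroblasts. Libraries with different numbers did so in 8 of 44, 3 of 44 and 9 of 36 pairs. With a replicate block, calls were 39, 24 and 45 between Sham populations and 0 in each treatment comparison. Libraries of different populations with the same treatment and number correlated over 0.1 in 0 (cardiomyocytes and ECs), 1 (cardiomyocytes and fibroblasts) and 2 (ECs and fibroblasts) of 12 pairs. Those with the same treatment and different numbers did so in 5 of 44, 6 of 40 and 2 of 40 pairs. With libraries of the same treatment and number as a replicate block, added after the data were seen, calls were 37, 19 and 39 between Sham populations. Over the interactions there were 0.

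Among the comparisons of named members, 1596 values kept direction and side of the threshold, 57 lost it, 10 gained it and 4 reversed. Low counts left Rpl10l and Rpl39l untested.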
